A study of Mus musculus with 12 samples.

Results

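The ATP-binding cassette (ABC) family was followed through sorted cells of the mouse fetal liver (FL). Its members were taken as every gene whose symbol is Abc, a subfamily letter from a to g, a number, and at most 1 further letter, which gave 50 of the 38127 genes counted in each library. Subfamily A held 16 of them, B and C 10 each, D 4, E 1, F 3, and G 6. All embryos were C57BL/6, with no transgene or treatment in the labels, and all cells were Ter119-CD45-, that is, without the erythrocyte and pan-hematopoietic surface markers. The P2 libraries came from CD54-CD31-Kit+CD24+ cells at embryonic day 14.5 (E14.5), which the study places in the erythroid lineage. The CD324+ libraries (the study's name) came from CD54+CD31- cells at E14.5, the gate that holds hepatoblasts. The CD31+ libraries came from CD54+CD31+ cells at E14.5, the endothelial gate. The remaining group was sorted as CD54+CD31- at E18.5. Each group had 3 libraries. The E14.5 libraries are described as independent litters. For E18.5 nothing says that the 3 libraries came from separate litters, so p-values there may measure technical spread.

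Total counts per library ranged from 40714017 to 64368883, and the 3 libraries per group limited the precision. Of the 10 erythroid progenitor markers, 10 were above their CD324+ level in P2 cells, and their summed level was 2962 to 3212 CPM (the count scaled to library size by TMM) against 427 to 753. The 10 hepatoblast markers summed to 74993 to 86287 CPM in CD324+ cells, 725 to 729 in P2 cells, and 908 to 1000 in CD31+ cells. The 10 endothelial markers summed to 10079 to 10738 CPM in CD31+ cells and 86.4 to 452 in P2 cells. The 10 macrophage markers summed to 1355 to 1612 CPM in CD31+ and 156 to 273 in CD324+ cells, but 1 of them, Mrc1, was higher in CD31+ cells and 8 were lower. The E18.5 libraries stood apart. Their hepatoblast markers summed to 3915 CPM in replicate 1, 44093 in replicate 2, and 57994 in replicate 3. In total, 8 of 8 biliary markers were at 1 CPM or more in every E18.5 library, summing to 935 to 1378 CPM against 42.4 to 55.6 in CD324+ cells. All 10 lung epithelial markers were at 1 CPM or more in every E18.5 library, with sums of 20443, 9044, and 9237 CPM in replicates 1, 2, and 3, whereas no E14.5 library exceeded 8.94 CPM. E18.5 results are therefore given with and without replicate 1.

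ABC proteins couple ATP hydrolysis at a paired nucleotide-binding domain to a mechanical step, and most members move lipids, bile salts, conjugates, or drugs across a membrane. In the liver, a set of them in the canalicular membrane of the hepatocyte forms bile, others load cholesterol onto lipoproteins, and a peroxisomal and a mitochondrial set serves fatty acid, heme, and iron metabolism. Subfamilies E and F carry no membrane domain and act on the ribosome. In bulk cells, fewer cells of a type and less RNA per cell cannot be told apart.

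In all, 29 members had a mean of 1 CPM or more in P2 cells, 38 in CD324+ cells, 37 in CD31+ cells, and 42 in E18.5 cells. Another 8 stayed under 1 CPM in every group (Abca12, Abca14, Abca15, Abca16, Abcb5, Abcb10, Abcc8, and Abcc12). Of these, Abcb10, which serves heme synthesis in erythroid mitochondria, was listed at 0 in all 12 libraries. Its whole span lies inside a gene of the opposite strand, and 10.3% of its exon bases overlap exons of that strand. Of 1027 protein-coding genes with their whole span inside other counted genes, 1008 (98.1%) were listed at 0 in every library. Among genes not nested in others, 2389 of 20691 (11.5%) were. For genes inside opposite-strand genes only, with no shared exon base, it was 359 of 363 (98.9%). The zero of Abcb10 is thus no measure of its transcript. The pattern is that of counts over whole gene spans, introns included, without regard to strand. Genes were therefore compared with each other both per kb of exon and per kb of span not shared with other genes, and an order is given where both agree. The summed level of the family was 3922 ± 138 CPM (mean ± SD, n = 3 in each group) in CD324+ cells, 2850 ± 5.65 in P2 cells, 1693 ± 53.9 in CD31+ cells, and 2864 ± 315 in E18.5 cells. The makeup behind these sums differed. Subfamily A gave 1740 ± 113 CPM in CD324+ cells and 326 ± 7.41 in P2 cells, whereas subfamily F gave 472 ± 14.3 and 1044 ± 39.97 CPM.

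**Figure D1:**
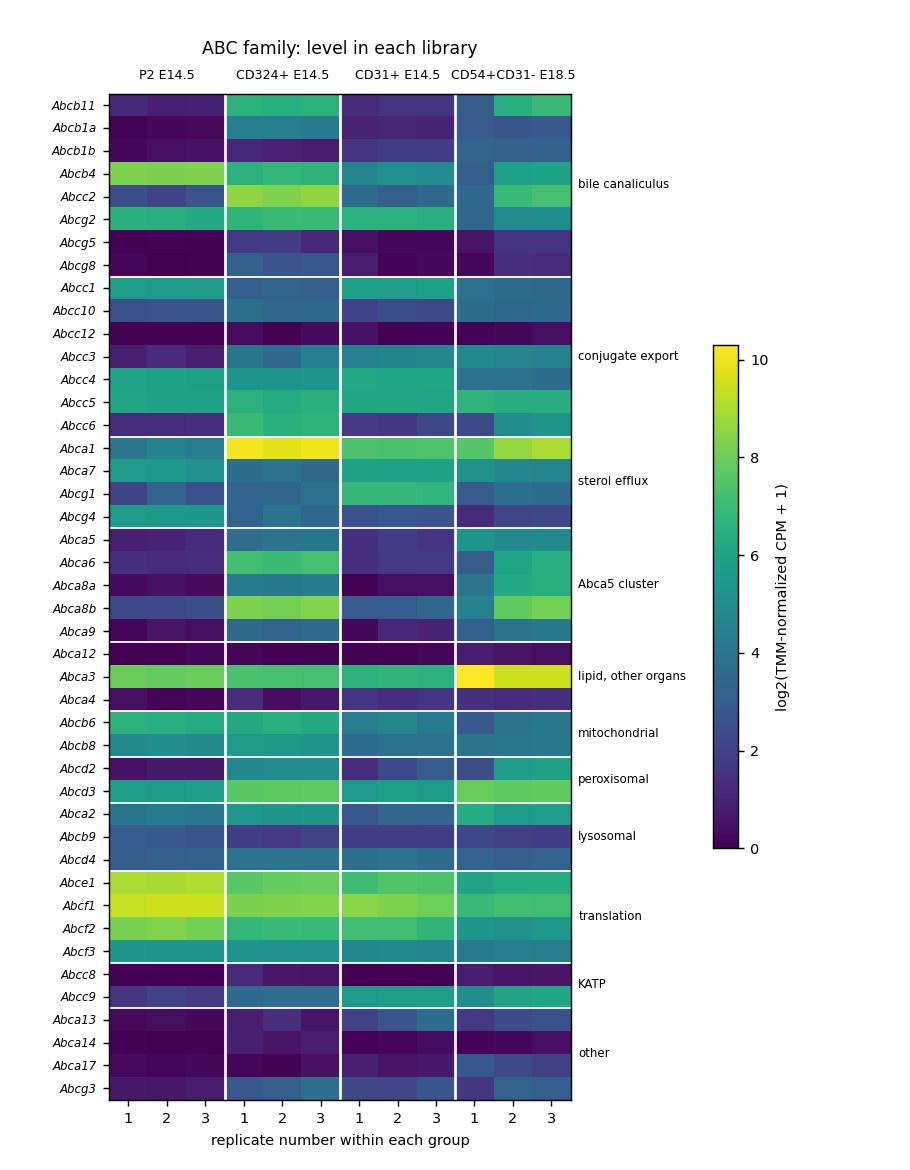
Heatmap of log2(TMM-normalized CPM + 1) for 44 members tested in at least 1 comparison (rows, grouped by role) in each of the 12 libraries (columns, by group and replicate number). Abcf1, Abcf2, and Abce1 were brightest in P2 libraries, the Abca8b and Abcc2 rows in CD324+ libraries, and the Abca3 row in E18.5 libraries. Replicate 1 of E18.5 was darker than its group in 19 rows, where it lay under 0.5 times the mean of the other two.

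Of the 44 members that passed the filter on low counts among the 9 E14.5 libraries, 41 differed between P2 and CD324+ cells at an adjusted p under 0.05 by edgeR, with 12 above and 29 below their CD324+ level. That is 93.2% of the members, where 70% of the 15461 genes tested were called (33.8% higher and 36.1% lower). The median log2 fold change was -1.51 over the members and -0.01 over all genes. Changes past 4-fold were called for 23 members, 21 of them lower in P2 cells, against 23.6% of all genes. Libraries did not overlap for 40 members, beside 75.3% of all genes. Against CD31+ cells, 13 members were higher and 24 lower in P2 cells, 84.1% of those tested beside 73.7% of all genes (34.3% higher and 39.4% lower), and 37 members did not overlap, beside 77.1%. CD31+ cells differed from CD324+ cells in 39 members, 10 higher and 29 lower, 88.6% beside 65.6% (31.7% higher and 34% lower), and 39 did not overlap, beside 69.5%. When the 3 populations were tested together, all 44 members were called, as were 86.9% of all genes. These comparisons share their libraries and are not independent of each other. With the authors' own scaling factors the median of all genes moved by -0.26 between P2 and CD324+ cells, by -0.37 between P2 and CD31+ cells, and by 0.11 between CD31+ and CD324+ cells, and the P2 to CD324+ split over all genes became 4008 higher and 6495 lower, while the members split 12 and 30.

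At E14.5, 21 members of the 41 with at least 1 CPM somewhere were highest in CD324+ cells, 11 in P2 cells, and 9 in CD31+ cells. For 20, 9, and 9 of them, respectively, every library of that group lay above all other E14.5 libraries. The members with their highest mean in P2 cells included Abca3, Abcb4, Abcb6, Abcb9, Abce1, Abcf1, Abcf2, Abcf3, and Abcg4. Among them, Abcb6 and Abcf3 overlapped with CD324+ libraries and were not called between P2 and CD324+ cells. The CD31+ group comprised Abca4, Abca7, Abca13, Abcb1b, Abcc1, Abcc3, Abcc4, Abcc9, and Abcg1.

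**Figure D2:**
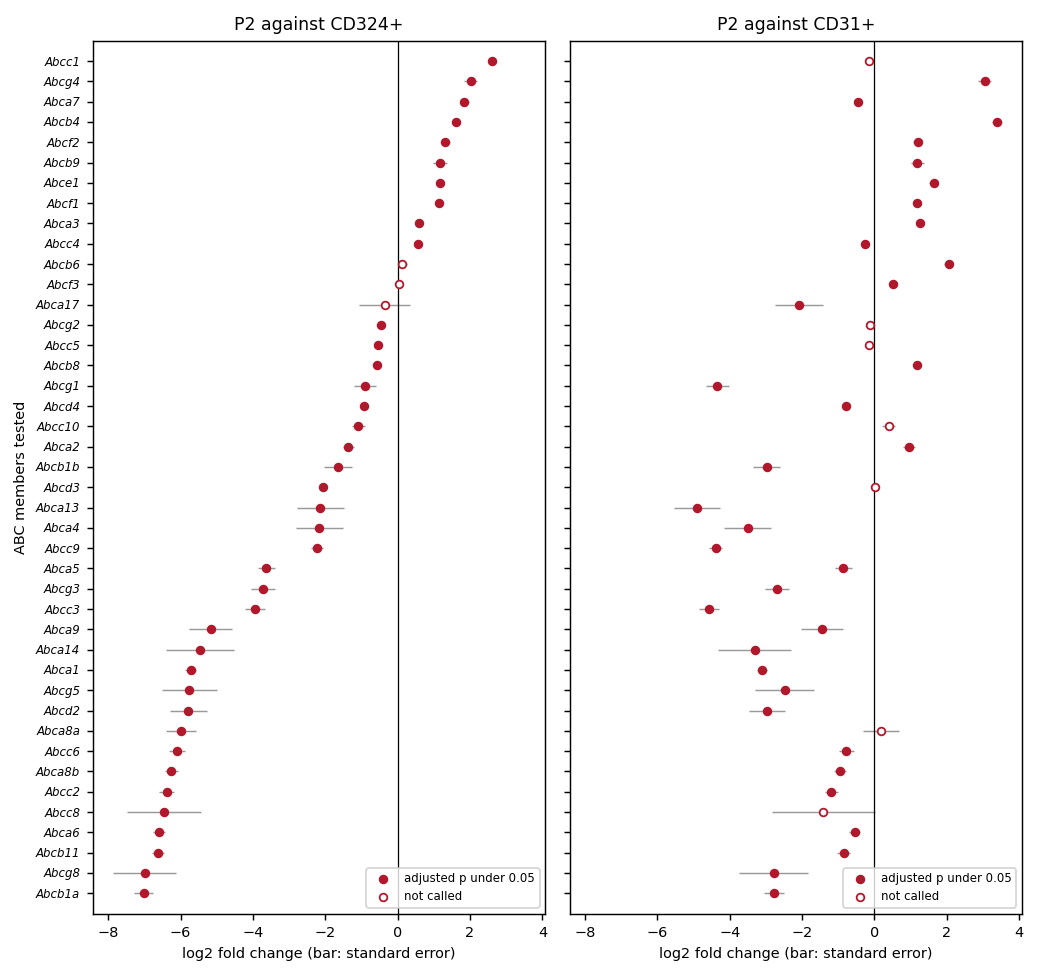
Log2 fold change with its standard error (x axis) of 42 tested members (y axis, in the order of the left panel) for P2 against CD324+ cells (left) and P2 against CD31+ cells (right). Filled points had an adjusted p under 0.05. On the left 29 filled points lie below 0 and 10 above, on the right 24 and 11, and the fitted values of Abca14, Abcc8, Abcg5, and Abcg8 rest on at most 4 counts per P2 library.

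Of the 8 canalicular exporters, 7 were lower in P2 than in CD324+ cells and 1 was higher. Abcb11, the bile salt export pump, was at 100.2, 88.4 and 96.6 CPM in the 3 CD324+ libraries, 1.22, 0.833 and 0.886 in P2 libraries, and 1.44, 1.91 and 1.89 in CD31+ libraries. The groups did not overlap, and P2 cells were 98.8-fold lower than CD324+ cells (log2 fold change -6.63 ± 0.17, SE, adjusted p = 3.78e-10). Abcc2, which exports conjugated bilirubin, was at 379, 318 and 388 CPM in CD324+ libraries, 4.59, 3.31 and 5.22 in P2 libraries, and 11.5, 8.04 and 10.3 in CD31+ libraries. It was 83.7-fold lower in P2 cells (adjusted p = 2.22e-09) and 36.5-fold lower in CD31+ cells (adjusted p = 7.60e-09) than in CD324+ cells, with no overlap. Abcc2 was the highest member of subfamily C in CD324+ cells by both lengths, at 42.4 CPM per kb of exon. The 9 hepatoblast markers tested were all lower too, with a median log2 fold change from CD324+ cells of -6.86 in P2 and -6.32 in CD31+ cells. Hepatoblast RNA in those libraries was not tested as a part of the low levels of Abcb11, Abcc2, Abca6, Abca8b, and Abcc6 there.

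Abcb4 behaved differently from its canalicular partners. The protein flops phosphatidylcholine into bile. Its level was 316, 310.3 and 319 CPM in P2 libraries, 94.7, 111 and 100.3 in CD324+ libraries, and 24.6, 35.3 and 30.2 in CD31+ libraries. Every P2 library lay above every other library, with a 3.05-fold difference from CD324+ cells (log2 1.61 ± 0.12, adjusted p = 9.46e-07) and a 10.4-fold difference from CD31+ cells (adjusted p = 3.28e-08). The hepatoblast markers in the same P2 libraries summed to 725 to 729 CPM, against 74993 to 86287 in CD324+ libraries. Abcb4 is at chr5:8893717-8959231 (GRCm38) on the plus strand, downstream of Abcb1a (chr5:8660077-8748575) and Abcb1b (chr5:8798147-8866315), which encode the multidrug P-glycoproteins. The neighbors did not share its pattern. Abcb1a was at 0.0689, 0.167 and 0.212 CPM in P2 libraries, 20.4, 20.8 and 18.4 in CD324+ libraries, and 0.97, 1.12 and 1.05 in CD31+ libraries, 129.9-fold below the CD324+ level in P2 cells (adjusted p = 4.96e-09). Abcb1b was highest in CD31+ libraries at 2.03, 2.64 and 2.65 CPM, beside 1.19, 0.944 and 0.765 in CD324+ and 0.161, 0.354 and 0.404 in P2 libraries. Both its differences from CD31+ cells were called (adjusted p = 3.86e-05 for P2 and 0.0065 for CD324+). Abcb1a and Abcb1b share 17.0% and 18.3% of their 50-base transcript stretches with other genes, chiefly each other, so the split between them is uncertain, whereas Abcb4 shares 3.42%.

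Abcg2, which exports urate, porphyrins, and drugs, had the smallest difference of the 8, at 92.9, 89.5 and 78.4 CPM in P2 libraries, 106, 128 and 124 in CD324+ libraries, and 93.7, 95.8 and 90.1 in CD31+ libraries. CD324+ cells were 1.39-fold above P2 cells (adjusted p = 0.0013), and the P2 to CD31+ difference did not pass (log2 -0.11 ± 0.10, adjusted p = 0.31). With all 12 libraries in 1 fit the first difference was lost (adjusted p = 0.22), and with the authors' factors Abcg2 was called lower in P2 than in CD31+ cells (adjusted p = 9.7e-04). Abcg5 and Abcg8 form the sterol exporter of bile and start close together on opposite strands of chromosome 17, and their annotated spans overlap, so reads there cannot be assigned to either. Both were low. Abcg8 was at 7.87, 5.603 and 6.05 CPM in CD324+ libraries and was counted 4, 1 and 2 times in the 3 P2 libraries and 46, 4 and 10 times in the CD31+ libraries. Abcg5 was at 2.35, 2.42 and 1.21 CPM in CD324+ libraries, with 0, 3 and 2 counts in P2 libraries. Both were called lower in P2 cells (adjusted p = 3.40e-05 for Abcg8 and 6.02e-05 for Abcg5), and no fold is given because P2 cells had so few counts. The stretch between the starts of the pair at chr17:84683012-84683120 (GRCm38.p6, plus strand, from RefSeq) is shown because both genes were called lower in P2 cells and it holds matches to TATAAA and AGATAA, the motifs of the TATA box and of GATA factors, marked in capitals on either strand.
Abcg5-Abcg8: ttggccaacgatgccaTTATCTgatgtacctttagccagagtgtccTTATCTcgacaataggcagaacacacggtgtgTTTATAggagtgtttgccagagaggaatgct
Over the 250 bases before the start, TATAAA was found in 12.4% and AGATAA in 9.99% of 32841 RefSeq promoters on either strand, and each in 5 of the 38 members with an entry. These 5 were Abca1, Abca4, Abcb6, Abcg5, and Abcg8 for TATAAA, and Abca14, Abca16, Abcf2, Abcg5, and Abcg8 for AGATAA. The windows of Abcg5 and Abcg8 share the stretch shown, so its matches were counted for both genes and are not independent. The motifs of hepatic factors were rarer, with TGTTTAC (FOXA) in 1 member, Abcb1a, beside 3.17% of all promoters, and the HNF1 motif in 0 members beside 0.134%. The RefSeq window of Abcb1a is chr5:8566841-8567090, which does not adjoin the annotated span used here, starting at 8660077.

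The sterol and phospholipid efflux genes each differed among the populations. Abca1, which hands cellular cholesterol to apolipoprotein A-I, was at 1104, 944 and 1043 CPM in CD324+ libraries, 171, 162 and 173 in CD31+ libraries, and 15.9, 23.8 and 19.5 in P2 libraries. The populations were fully separated, with P2 cells 52.9-fold below CD324+ cells (log2 -5.73 ± 0.16, adjusted p = 6.54e-10) and 8.61-fold below CD31+ cells (adjusted p = 5.80e-08). Abcg1, which passes cholesterol to high-density lipoprotein, was at 114, 115 and 109 CPM in CD31+ libraries, 8.77, 9.22 and 13.2 in CD324+ libraries, and 3.15, 8.72 and 4.97 in P2 libraries. CD31+ cells stood 10.8-fold above CD324+ cells (adjusted p = 3.93e-06) and 20.2-fold above P2 cells (adjusted p = 8.26e-07). The 10 macrophage markers summed to 1355 to 1612 CPM in CD31+ and 156 to 273 in CD324+ cells. Of them, 8 were lower and 1, Mrc1, was higher in CD31+ than in CD324+ cells. The part of these markers in the Abcg1 level was not tested. Abcg4, the closest relative of Abcg1, was instead at 48.5, 44.2 and 42.4 CPM in P2 libraries, 8.63, 14.5 and 9.797 in CD324+ libraries, and 4.81, 5.86 and 5.58 in CD31+ libraries. P2 cells were 4.06-fold above CD324+ cells (adjusted p = 2.80e-06) and 8.24-fold above CD31+ cells (adjusted p = 2.41e-07), again with no overlap. Abca7, a phospholipid exporter of phagocytic and hematopoietic cells, was at 46.9, 44.6 and 38.6 CPM in P2 and 59.9, 58.1 and 59.1 in CD31+ libraries, and at 11.4, 13.7 and 10.7 in CD324+ libraries (3.59-fold above CD324+ cells in P2 cells, adjusted p = 1.96e-07).

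**Figure D3:**
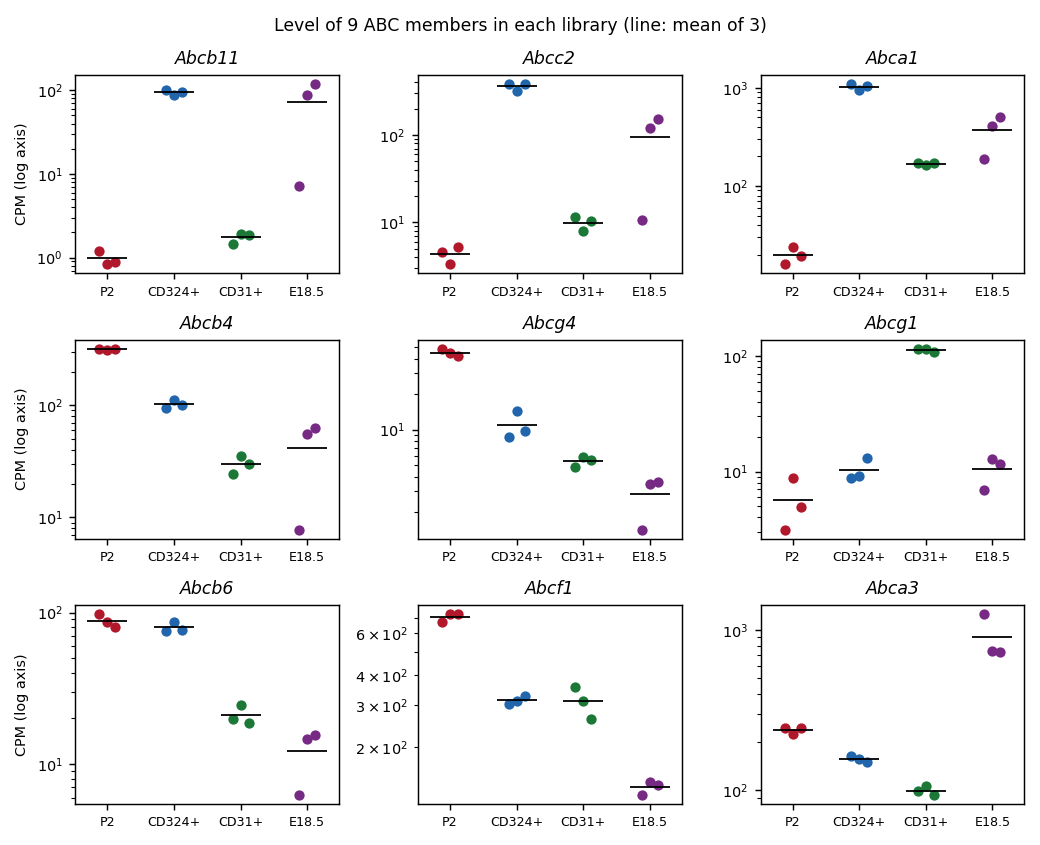
TMM-normalized CPM (y axis, log scale, own range in each panel) of 9 members in the 12 libraries (points), by group, with a line at the mean of 3. Abcb4, Abcg4, and Abcf1 were highest in P2 libraries, Abcb6 overlapped between P2 and CD324+ libraries, Abcc2 and Abca1 were highest in CD324+ libraries, Abcg1 in CD31+ libraries, and Abca3 in E18.5 libraries. Replicate 1 of E18.5 lay far below its group for Abcb11, Abcc2, and Abcb4.

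Mitochondrial members differed in their pattern. Abcb6, a porphyrin transporter, was at 97.8, 87.1 and 79.9 CPM in P2 and 75.7, 86.9 and 76.8 in CD324+ libraries, which overlapped and did not pass the test (log2 0.13 ± 0.12, adjusted p = 0.37). CD31+ libraries were lower at 19.9, 24.7 and 18.7 CPM, 4.15-fold below P2 cells (adjusted p = 2.42e-07). Abcb6 shares 66.8% of its 50-base transcript stretches with Gm29253, an overlapping gene that the files do not list. Abcb8, an iron-linked transporter, was at 45.8, 44.5 and 39.6 CPM in CD324+ libraries, 27.95, 31.8 and 27.9 in P2 libraries, and 11.2, 13.9 and 13.3 in CD31+ libraries, and was 1.501-fold below the CD324+ level in P2 cells (adjusted p = 7.33e-04). In the list of 15 genes for mitochondrial heme and iron-sulfur synthesis, 13 were tested, of which 9 were higher and 2 lower in P2 than in CD324+ cells (median log2 fold change 0.85). Alas2 of this list was at 0 in all 12 libraries, and Flvcr1 was not found under that symbol. Whether the zero of Alas2 measures its transcript was not tested. Cpox, the coproporphyrinogen oxidase of heme synthesis, rose most (1.84 ± 0.17, adjusted p = 3.69e-06), and Hmox1, which degrades heme, was lowest (-3.04 ± 0.48, adjusted p = 2.11e-04).

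Of the 4 soluble translation factors, Abcf1, Abcf2, and Abce1 had the highest levels per kb of all members in P2 cells. Abcf1, a factor of translation initiation, led at 160 CPM per kb of exon, followed by Abcf2 at 117 and by Abce1, which splits ribosomes for recycling, at 84.7. The order was the same per kb of span, and in CD31+ cells too. Abcf1 was at 669, 722 and 725 CPM in P2 libraries, 305, 312 and 328 in CD324+ libraries, and 358, 312 and 263 in CD31+ libraries. Every P2 library lay above the others (2.21-fold above CD324+ cells, adjusted p = 5.47e-06), and CD31+ and CD324+ cells were not separated (log2 -0.02 ± 0.11, adjusted p = 0.85). Abcf2 was at 297, 325 and 276 CPM in P2, 113, 123 and 119.7 in CD324+, and 142, 141 and 107 in CD31+ libraries (2.49-fold, adjusted p = 3.14e-06). Abce1 was at 506, 489.7 and 530.1 CPM in P2, 200.1, 234 and 236 in CD324+, and 135, 182 and 169.7 in CD31+ libraries (2.25-fold above CD324+ cells, adjusted p = 7.05e-06). Abcf3 did not pass the test between P2 and CD324+ cells (log2 0.02 ± 0.08, adjusted p = 0.82). Of 7 listed recycling and initiation partners, 4 were tested, and 3 were higher and 1 lower in P2 than in CD324+ cells. The lower was Eif2ak4, a kinase of initiation factor 2 (-0.62 ± 0.09). Pelo and Eif2s2 were listed at 0 in all 12 libraries, and Gcn1 was not found under that symbol. Whether the zeros of Pelo and Eif2s2 measure their transcripts was not tested.

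Conjugate exporters outside the canaliculus went both ways. Abcc1, an exporter of glutathione conjugates, had the highest fold of any member in P2 over CD324+ cells. It was at 51.5, 49.2 and 50.4 CPM in P2 libraries, 54.8, 53.1 and 58.1 in CD31+ libraries, and 7.498, 9.29 and 7.82 in CD324+ libraries. P2 cells were 6.07-fold above CD324+ cells (adjusted p = 5.55e-09), and their difference from CD31+ cells did not pass (log2 -0.15 ± 0.09, adjusted p = 0.18) but passed with the authors' factors (adjusted p = 4.5e-04). Abcc4, which exports cyclic nucleotides and prostanoids, was at 64.5, 61.1 and 57.3 CPM in P2, 76.05, 69.8 and 71.8 in CD31+, and 42.05, 39.03 and 41.1 in CD324+ libraries (1.48-fold above CD324+ cells in P2 cells, adjusted p = 1.27e-04). Abcc3, a basolateral exporter of hepatocytes, was low in P2 libraries at 0.85, 1.31 and 0.828 CPM, beside 15.1, 10.4 and 20.2 in CD324+ and 22.02, 24.2 and 24.4 in CD31+ libraries. P2 cells were 23.8-fold below CD31+ cells (adjusted p = 2.18e-07). Abcc6, a liver gene whose loss causes ectopic mineralization, was at 121, 92.5 and 102 CPM in CD324+ libraries, 1.54, 1.56 and 1.598 in P2 libraries, and 2.23, 2.17 and 3.58 in CD31+ libraries (67.9-fold lower in P2 cells, adjusted p = 3.54e-09). Abcc5 and Abcc10 were 1.46-fold and 2.13-fold below the CD324+ level in P2 cells (adjusted p = 2.89e-04 and 3.07e-04). Abcc12 was counted 0 times in the P2 libraries and was not tested there.

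The regulatory subunits of the ATP-sensitive potassium channel, Abcc8 and Abcc9, differed in level. Abcc9 was at 48.4, 52.5 and 52.4 CPM in CD31+ libraries, 10.4, 11.8 and 11.97 in CD324+ libraries, and 1.93, 3.16 and 2.27 in P2 libraries, 20.9-fold lower in P2 than in CD31+ cells (adjusted p = 3.28e-08). Abcc8 was counted 0, 0 and 1 times in P2 libraries and 0, 1 and 3 times in CD31+ libraries, against 50, 19 and 19 times in CD324+ libraries. The pore partner Kcnj8 stayed under 1 CPM in every E14.5 library, at 0.792, 0.913 and 0.716 CPM in CD324+ and 0.115, 0 and 0.116 in P2 libraries.

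The 5 genes Abca8b, Abca8a, Abca9, Abca6, and Abca5 lie in that order within 405.5 kb of chromosome 11, from 109932190 to 110337716, all on the minus strand. They are lipid transporters of subfamily A, and all 5 were lower in P2 and in CD31+ cells than in CD324+ cells. Abca8b was at 317, 283 and 333 CPM in CD324+ libraries, 3.904, 3.87 and 4.602 in P2 libraries, and 6.68, 6.98 and 9.999 in CD31+ libraries. Abca6 was at 144, 134 and 155, 1.65, 1.33 and 1.52, and 1.71, 2.39 and 2.39 CPM in the same order of groups. Abca8a reached 17.4, 16.9 and 17.5 CPM in CD324+ libraries and at most 0.375 CPM elsewhere at E14.5. Their fold changes from P2 to CD324+ cells were 76.3 for Abca8b, 97.1 for Abca6, 63.7 for Abca8a, 35.96 for Abca9, and 12.4 for Abca5, with no overlap for any of them. In all, 21 members lay within 200 kb of another in 8 clusters, on any strand. Some neighbors differed in their highest E14.5 population, and others, such as Abcg5 and Abcg8, did not. Abcb8 was highest in CD324+ cells and Abcf2 in P2 cells on chromosome 5. On chromosome 16 the mean of Abcc5 was highest in CD324+ cells and that of Abcf3 in P2 cells. However, Abcf3 overlapped between P2 and CD324+ libraries and was not called between them (log2 0.02 ± 0.08, adjusted p = 0.82 by edgeR).

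Peroxisomal members import fatty acyl-CoA esters for beta oxidation. Abcd3 was at 202, 209.7 and 212 CPM in CD324+, 52.5, 48.2 and 51.7 in P2, and 46.1, 55.97 and 47.9 in CD31+ libraries, 4.15-fold below the CD324+ level in P2 cells (adjusted p = 1.67e-08). It was the highest member of subfamily D per kb in CD324+, CD31+, and E18.5 cells by both lengths. Abcd2 was at 27.05, 30.4 and 31.2 CPM in CD324+ and 0.413, 0.624 and 0.578 in P2 libraries (55.1-fold lower, adjusted p = 3.11e-06). In a list of 14 peroxisomal import and oxidation genes, 12 of 13 tested were lower in P2 than in CD324+ cells and the other did not pass. Acaa1b, a thiolase, changed most (-7.28 ± 0.53), and Acaa1a was listed at 0 in all 12 libraries. Whether the zero of Acaa1a measures its transcript was not tested.

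Abca2 and Abcd4, the lysosomal cobalamin transporter, were 2.57-fold and 1.92-fold lower in P2 than in CD324+ cells, and Abcb9, a lysosomal peptide transporter, was 2.26-fold higher (adjusted p = 2.51e-05, 3.03e-05, and 2.12e-04). Abca3, the phospholipid transporter of lung lamellar bodies, was at 246, 224 and 246 CPM in P2, 163, 157 and 150.1 in CD324+, and 99.5, 106 and 93.8 in CD31+ libraries, and P2 cells stood above both (adjusted p = 9.69e-05 and 4.25e-07). It was the highest member of subfamily A in P2 cells by both lengths. Abca13 was at 3.04, 5.65 and 11.4 CPM in CD31+ libraries and at most 1.67 CPM in all other E14.5 libraries, and its CD31+ libraries spread widely. Abca4, the retinal transporter, was at 2.14, 1.66 and 1.997 CPM in CD31+ libraries and 0.299, 0.0833 and 0.135 in P2 libraries (adjusted p = 6.21e-04). Abcg3 was at 6.03, 7.68 and 12.4 CPM in CD324+ and 0.643, 0.604 and 0.751 in P2 libraries (13.2-fold lower, adjusted p = 3.28e-06). Abca14 was called lower in P2 cells on 2, 0 and 0 against 31, 14 and 34 counts, Abca17 did not pass (log2 -0.36 ± 0.71, adjusted p = 0.67), and Abca15, Abca16, Abcb5, and Abca12 were too low to test, with at most 10 counts in any E14.5 library.

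The wider pathways were read beside the members. Of 15 genes for bile acid synthesis, uptake, and sensing, 14 were tested, with 13 lower and 1 higher in P2 than in CD324+ cells (median -5.22), Cyp7a1, the rate-limiting enzyme, being lowest (-7.50 ± 0.81, adjusted p = 1.25e-05) and Slc51a, an organic solute exporter subunit, higher (2.62 ± 0.72, adjusted p = 0.008). Of 15 genes for cholesterol handling and high-density lipoprotein, 14 were tested, 12 were lower and 2 higher. Apoa1, the acceptor of Abca1 cargo, changed most (-6.85 ± 0.19), and Lcat was listed at 0 in all 12 libraries. Whether the zero of Lcat measures its transcript was not tested. Among 9 nuclear receptors and stress regulators that act on exporter genes, 8 were lower and 1, Nfe2l2, was higher in P2 cells. Nr1i2, the xenobiotic receptor, was lowest (-6.43 ± 0.35, adjusted p = 6.92e-08).

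Promoter composition was described for the 38 members with a RefSeq entry, as the ratio of observed to expected CpG over the 250 bases before the start. Over the 8 entries of members higher in P2 than in CD324+ cells the median ratio was 0.762, and 0 of 8 were under 0.5. Over the 16 entries of members more than 4-fold lower, the median was 0.386, and 11 (68.8%) were under 0.5. The 5 entries of members called lower by less than 4-fold had a median of 0.619, with 1 under 0.5. For the 3 entries of members not called it was 0.750, with 1 under 0.5, and for the 6 not tested 0.407, with 4 under 0.5. Over all 32841 RefSeq promoters the median was 0.374, and 59.5% were under 0.5. The 4 sequences are shown for the range in CpG, with each CpG in capitals, 5′ to 3′ (GRCm38.p6), stopping where an annotated exon begins. Abcc2 (chr19:43782058-43782191, plus strand, 1 CpG) and Abcb11 (chr2:69342617-69342866, minus strand, 4) were low in P2 cells, Abcf1 (chr17:35969762-35970000, minus strand, 22) was high, and Abcd3 (chr3:121815303-121815552, minus strand, 34) was low in P2 cells with the most CpG of the 4.
Abcc2: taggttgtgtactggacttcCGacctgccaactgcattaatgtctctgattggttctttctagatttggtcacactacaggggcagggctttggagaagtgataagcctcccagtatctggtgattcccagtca
Abcb11: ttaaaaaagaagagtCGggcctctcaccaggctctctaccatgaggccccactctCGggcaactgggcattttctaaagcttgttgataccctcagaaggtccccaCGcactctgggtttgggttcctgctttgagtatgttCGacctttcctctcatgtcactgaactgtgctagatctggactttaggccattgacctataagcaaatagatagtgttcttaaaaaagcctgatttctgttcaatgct
Abcf1: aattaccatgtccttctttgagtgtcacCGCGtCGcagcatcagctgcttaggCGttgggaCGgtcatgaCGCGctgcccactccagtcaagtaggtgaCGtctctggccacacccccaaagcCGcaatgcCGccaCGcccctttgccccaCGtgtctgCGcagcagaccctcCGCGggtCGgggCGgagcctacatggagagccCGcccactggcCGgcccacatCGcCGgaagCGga
Abcd3: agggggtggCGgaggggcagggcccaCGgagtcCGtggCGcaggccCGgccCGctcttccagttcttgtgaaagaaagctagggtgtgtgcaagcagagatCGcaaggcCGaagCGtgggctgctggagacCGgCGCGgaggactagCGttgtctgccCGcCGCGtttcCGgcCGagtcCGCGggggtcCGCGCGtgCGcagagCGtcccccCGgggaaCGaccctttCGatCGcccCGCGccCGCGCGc

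The CD54+CD31- gate was then compared between E18.5 and E14.5. Of 46 members tested, 29 were called, 14 higher and 15 lower at E18.5, which is 63.0% of them beside 69.4% of 15863 genes (35.9% higher and 33.5% lower). Libraries did not overlap for 32 members, beside 77.8% of all genes. Without replicate 1, 16 were higher and 18 lower, 73.9% of the members beside 72.7% of 16074 genes tested in that fit, and 28 of them were called in the same direction with all 3 libraries. Abca6, Abca9, Abcb4, Abcc2, Abcc6, and Abcd2 were called only without it, and Abca14 only with it. Fold changes here came from the 6 libraries of this gate. The 12-library scale of the CPM values places E18.5 lower against E14.5 by 0.19 on the log2 scale, and the authors' factors place it higher by 0.23.

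**Figure D4:**
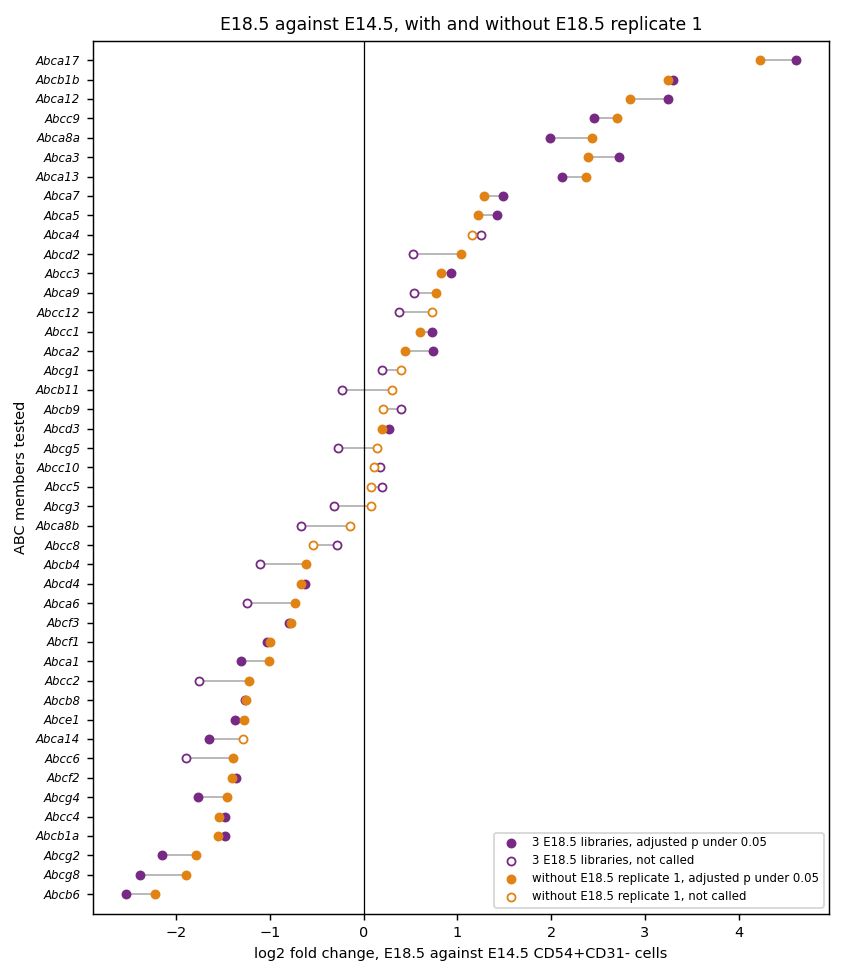
Log2 fold change of E18.5 against E14.5 CD54+CD31- cells (x axis) for 44 tested members (y axis), with the 3 E18.5 libraries (purple) and without replicate 1 (orange), filled where the adjusted p was under 0.05. Abcb11, Abcg3, and Abcg5 changed sign without replicate 1 and were not called either way, while Abca17 and Abcb1b stayed far above 0 and Abcb6 far below.

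Abca3 had the highest level per kb of any member at E18.5, by both lengths. It was at 1259, 739 and 728 CPM in the E18.5 libraries, each above all E14.5 libraries, 6.605-fold over CD324+ cells (log2 2.72 ± 0.26, adjusted p = 1.50e-04) and 2.39 ± 0.09 without replicate 1. Lung epithelial markers, all 10 of them called higher, summed to 4.69 to 8.94 CPM at E14.5 and 9044 to 20443 at E18.5, and both they and Abca3 were highest in replicate 1. The surfactant gene Sftpc was at 12377, 5095 and 5404 CPM in the E18.5 libraries and 0, 1.73 and 0.0987 in CD324+ libraries. Their part in the Abca3 level was not tested. Abca17, the divergent neighbor of Abca3 on the other strand, was at 6.08, 3.84 and 2.89 CPM against 0.141, 0.0315 and 0.395 (log2 4.61 ± 0.67, adjusted p = 9.18e-04). Its replicate 1 was likewise the highest. Abca17 shares 2.75% of its 50-base transcript stretches with Abca3, and the part of Abca3 reads in its level was not tested. Abca12, the epidermal lipid transporter, stayed under 1 CPM but was counted 46, 35 and 21 times at E18.5 and 5, 0 and 1 times at E14.5 (adjusted p = 0.014, which became 0.059 without E14.5 replicate 3).

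Abcb1b was at 8.87, 8.02 and 8.24 CPM at E18.5 against 1.19, 0.944 and 0.765 at E14.5, 9.84-fold higher (adjusted p = 4.10e-05), with replicate 1 close to the others. Abcb1a went down over the same interval, being 20.4, 20.8 and 18.4 CPM at E14.5 and 6.76, 5.72 and 6.31 at E18.5 (2.79-fold, adjusted p = 9.89e-05), so the P-glycoprotein genes changed in opposite directions within the limit of their shared sequence. Abcc9 was at 32.6, 62.9 and 69.3 CPM, 5.47-fold over E14.5 (adjusted p = 2.72e-04), and its log2 fold change was 2.71 ± 0.09 without replicate 1. Its pore partner Kcnj8 rose too (2.29 ± 0.23, adjusted p = 1.70e-04). Endothelial markers were also higher, 10 of 10, with sums of 46.1 to 75.4 CPM at E14.5 and 208 to 264 at E18.5. Of 10 stellate and mesenchymal markers, 9 were called higher and 1 lower. They summed to 1174 to 1225 CPM at E14.5 and 4272 to 4500 at E18.5. The part of either list was not tested. Abca13 was at 2.24, 4.18 and 4.83 CPM (4.32-fold, adjusted p = 0.0083), and Abca8a at 15.4, 77.1 and 89.7 CPM (3.97-fold, adjusted p = 0.019). Without replicate 1 their log2 fold changes were 2.37 ± 0.41 and 2.44 ± 0.09 (adjusted p = 8.14e-04 and 1.27e-07). Abca8a was at 17.4, 16.9 and 17.5 CPM at E14.5, close together, and its E18.5 replicate 1 was far below the others. With that replicate kept, leaving out any 1 E14.5 library raised its adjusted p to between 0.066 and 0.069. With the replicate number as a block the Abca8a call was lost at 0.063.

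Among the canalicular exporters, the calls of Abcc2 and Abcb4 depended on replicate 1, and those of Abcb1a, Abcb1b, Abcg2, and Abcg8 did not. Abcb11 was at 7.21, 88.3 and 120.3 CPM in the E18.5 libraries, with replicate 1 below and replicate 3 above every CD324+ library at E14.5. Its log2 fold change was -0.23 ± 0.81 with all libraries (adjusted p = 0.81) and 0.30 ± 0.13 without replicate 1 (adjusted p = 0.0703). Abcc2 was at 10.6, 121 and 154 CPM, all below CD324+ cells, and was called lower only without replicate 1 (-1.23 ± 0.14, adjusted p = 5.62e-05, against 0.093 with it). Abcb4 was at 7.801, 55.7 and 62.6 CPM and was called lower only without replicate 1 (-0.62 ± 0.09, adjusted p = 3.50e-04, against 0.17). The hepatoblast markers of replicate 1 were low in the same way, at 3915 CPM against 44093 and 57994, and their part was not tested. Abcg2 fell with or without it, at 9.98, 29.98 and 31.5 CPM (-2.14 ± 0.40, adjusted p = 0.00299, and -1.79 ± 0.10 without replicate 1). Abcg8 was at 0.17, 1.66 and 1.47 CPM and also fell (-2.39 ± 0.69, adjusted p = 0.018, and -1.89 ± 0.24 without replicate 1), although without E14.5 replicate 1 the adjusted p was 0.06.

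The mitochondrial members Abcb6 and Abcb8 and 4 of 4 translation factors fell between E14.5 and E18.5. Abcb6 was at 6.27, 14.7 and 15.6 CPM at E18.5, 5.77-fold lower (log2 -2.53 ± 0.33, adjusted p = 5.41e-04, and -2.23 ± 0.10 without replicate 1). Abcb8 was at 15.2, 15.5 and 16.9 CPM (2.403-fold lower, adjusted p = 8.03e-05). All 3 E18.5 libraries lay below the 3 E14.5 libraries for both. Abce1 was at 63.05, 81.9 and 82.8, Abcf1 at 126, 142 and 138, and Abcf2 at 41.6, 36.2 and 43.6 CPM, 2.59-fold, 2.04-fold, and 2.57-fold lower (adjusted p = 1.26e-04, 1.03e-04, and 5.82e-05). In the heme and iron-sulfur list 10 of 13 were lower and 1 higher at E18.5, and in the ribosomal partner list 3 of 4 were lower. Of 10 erythroid markers 5 were also lower, and they summed to 204 to 328 CPM at E18.5 and 427 to 753 at E14.5. Their part was not tested.

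Among sterol genes, Abca1 was at 189, 410.5 and 506 CPM, 2.47-fold below E14.5 (adjusted p = 0.012) and -1.003 ± 0.14 without replicate 1. Abca7 rose (1.49 ± 0.19, adjusted p = 5.05e-04) to 36.6, 26.3 and 25.3 CPM, and Abcg4 fell (-1.77 ± 0.38, adjusted p = 0.0053) to 1.42, 3.48 and 3.601 CPM. Without replicate 1 the Abcg4 change was -1.46 ± 0.23. Abcg1 was at 6.97, 12.7 and 11.6 CPM and did not pass the test (adjusted p = 0.53). Of the peroxisomal set, Abcd3, at 235, 208 and 217 CPM, was called higher by 1.205-fold (adjusted p = 0.045). The call was lost with all 12 libraries in 1 fit (adjusted p = 0.44), with the replicate number as a block (0.088), and when any 1 library other than E18.5 replicate 1 was left out (0.061 to 0.12). Abcd2, at 4.58, 50.5 and 57.9 CPM, was called higher only without replicate 1 (1.04 ± 0.10, adjusted p = 1.52e-05).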

How the data were processed

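RNA from sorted FL cells was ribodepleted, made into stranded total RNA libraries, and sequenced. Per the labels and the study's methods, the authors trimmed reads with cutadapt 1.11, aligned them with STAR 2.5.0a to GRCm38, counted them per gene with featureCounts 1.4.6-p3, and scaled them with DESeq2 in R 3.5.1. The strand and multimapping settings are not given in the sources used here. The authors deposited raw counts per gene and a score, the count times 1 factor per library, rounded. Only the counts entered the main tests.

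Counts were tested with edgeR 4.0.16 (quasi-likelihood, TMM, filterByExpr, R 4.3.3) over all genes, with Benjamini-Hochberg adjustment and a threshold of 0.05. The 9 E14.5 libraries shared 1 fit and the 6 CD54+CD31- libraries another. Levels are TMM-scaled CPM from all 12 libraries. SE is the fold change divided by the root of F. The script was tested on simulated data. The members and lists were chosen with earlier results of these data known. Values in every library are given for called members without overlap among the 5 largest changes per direction, the highest member per kb of each subfamily, and the bile, sterol, and mitochondrial roles. The pathway gene with the largest change per direction is named. Alternatives were other size factors, the authors' factors, filters, fits, DESeq2 1.42.0, a 2-fold threshold, abundant genes left out, each library left out, and a replicate block. The per-kb span alternative was chosen after seeing the data. Same-number libraries correlated at 0.02 to 0.21 in their deviations from group means. Whether the numbers pair samples is not known, and the main tests did not pair them. Results of 2 members are not reported here, in text or figures, but both are in the counts over the family.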

Additional observations from a re-analysis of the deposited data

How the results depend on the processing

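With a required change beyond 2-fold (glmTreat), called members became 25 for P2 against CD324+, 18 for P2 against CD31+, 25 for CD31+ against CD324+, and 17 for E18.5 against E14.5, beside 5056, 5653, 4590, and 5315 of all genes. Leaving out each library gave 40 to 42, 33 to 37, 36 to 40, and 23 to 34 members (10220 to 11102, 10845 to 11514, 9305 to 10257, and 9997 to 11689 of all genes), and 43 to 44 members differing among the 3 populations. Single members were followed through each alternative only for the 35 whose values in every library are given by rule. Among these, the fold changes that reversed belonged to members not called in that comparison, and Abcd3 passed after reversing, with the authors' factors (adjusted p = 0.0016). For P2 against CD324+ these were Abca17 without CD324+ replicate 3 (0.76, with -0.84 the lowest for any library left out) and Abcb6 with the authors' factors (-0.14). For P2 against CD31+ they were Abca8a with the authors' factors (-0.18), without CD31+ replicate 1 (-0.27), and without P2 replicate 2 (-0.12), with 0.65 the highest, and Abcd3 with the DESeq2 Wald test (-0.0121), DESeq2 size factors (-0.0166), at least 10 counts (-0.13), the authors' factors (-0.36), and without CD31+ replicate 1 (-0.0413, with 0.17 the highest). For CD31+ against CD324+ they were Abcf1 with the DESeq2 Wald test (0.00384), size factors (0.0145), at least 10 counts (0.0192), the authors' factors (0.0842), only the 6 libraries compared (0.00345), and without CD31+ replicate 3 (0.00744), and Abcf2 without CD31+ replicate 2 (-0.0192, with 0.17 the highest). For E18.5 against E14.5 they were Abcb11 (0.30, lowest -0.82) and Abcg5 (0.14, lowest -0.57) without E18.5 replicate 1 and Abcc8 without E14.5 replicate 1 (0.35, lowest -0.60). Outside the 35, Abcg3 changed from -0.31 to 0.0764 without E18.5 replicate 1. The cause was not tested. With the replicate number as a block, 41, 37, 40, and 26 members were called, beside 10910, 11460, 10326, and 10329 of all genes. Abca14, Abca8a, and Abcd3 were lost at E18.5 and Abca4 was gained between CD31+ and CD324+ cells. Whether the numbers pair the samples is not known, and 19 of 24 library and group pairs correlated best with their own number. Differences of members with few counts, such as Abca12, Abca14, Abca17, Abcc8, Abcg5, and Abcg8, are limited by depth.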

Other observations

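ABC proteins named outside the rule moved as well. Cftr, the chloride channel of the family, was at 107, 77.4 and 74.4 CPM in the E18.5 libraries and 0.283, 0.157 and 0 in CD324+ libraries (9.42 ± 0.61, adjusted p = 3.66e-05 by edgeR). Biliary markers, of which Cftr is 1, were called higher there in 8 of 8 cases. Tap2, a subunit of the peptide transporter for antigen presentation, was at 7.53, 8.12 and 9.3002 CPM in P2 and 1.61, 2.14 and 1.999 in CD324+ libraries (2.10 ± 0.17, adjusted p = 1.43e-06), whereas its partner Tap1 was lower in P2 cells (-0.54 ± 0.18, adjusted p = 0.018).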
